A study of Rattus norvegicus with 458 samples.

Results

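The microRNAs (miRNAs) miR-208a, miR-208b and miR-499 were followed across a body atlas of the rat, in which the small RNAs of 23 tissues were sequenced. The members were the table rows named miR-208a, miR-208b or miR-499 with any arm, alone or in a composite name, leaving out every row whose name holds a precursor part (-pre). This rule held for 7 of 7534 names and for 1398 of 264294 isomiR sequences, an isomiR being any one of the slightly different sequences counted under a miRNA. The 7 names were the 3p and 5p arms of each of the 3 miRNAs and 1 composite name, chrX_48837-5p;miR-499-5p, with 12 counts in all libraries. The animals were naive Sprague Dawley rats of 12 to 13 weeks, 5 males (rats 2 to 6) and 5 females (rats 7 to 11), with no treatment. Heart, Muscle - Soleus and Muscle - Biceps (biceps femoris, a thigh muscle) were taken from all 10 rats, as were 16 further tissues, while Testicle came from the 5 males and Ovary and Uterus from the 5 females. Cortex and Medulla are the kidney cortex and medulla, and Kidney is the whole organ. Dorsal root ganglion (DRG) RNA was pooled over 5 rats of each sex and each pool was made into 5 libraries, so its 10 libraries are technical repeats of 2 samples.

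These 3 miRNAs lie within genes for myosin heavy chains, the motor proteins of striated muscle: miR-208a within Myh6, the alpha heavy chain of the heart, miR-208b within Myh7, the beta heavy chain that the heart shares with slow skeletal fibres, and miR-499 within Myh7b. They are known as myomiRs and are transcribed with their host genes. In the adult rodent ventricle the alpha chain prevails, and the soleus is a slow postural muscle, whereas the biceps femoris is mostly fast. A miRNA finds its targets mainly through the seed, the bases at positions 2 to 8 from its 5′ end, so that forms that start 1 base earlier or later present another seed.

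The hairpins are shown because the 2 arms and the start positions described below are read from them. In RefSeq (assembly GRCr8) Mir208a lies on the minus strand at chr15:32395552-32395634, Mir208b on the minus strand at chr15:32421615-32421726 and Mir499a on the plus strand at chr3:164570612-164570676. Capitals mark the most counted sequence of each arm in the 3 striated muscle tissues.
Mir208a: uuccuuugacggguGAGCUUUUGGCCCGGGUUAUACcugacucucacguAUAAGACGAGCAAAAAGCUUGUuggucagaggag
Mir208b: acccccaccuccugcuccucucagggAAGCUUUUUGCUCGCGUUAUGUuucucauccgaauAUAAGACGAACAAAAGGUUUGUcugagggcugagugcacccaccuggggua
Mir499a: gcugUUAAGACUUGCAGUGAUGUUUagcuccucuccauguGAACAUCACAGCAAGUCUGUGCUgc

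The most counted mature forms are given with the seed in capitals, since the seed is what the members share and where they differ.
miR-208a-3p: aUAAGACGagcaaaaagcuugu
miR-208b-3p: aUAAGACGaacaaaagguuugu
miR-499-5p: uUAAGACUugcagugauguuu
miR-208a-5p: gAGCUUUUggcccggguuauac
miR-208b-5p: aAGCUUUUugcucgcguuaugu
miR-499-3p: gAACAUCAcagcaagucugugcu
The 3p arms of miR-208a and miR-208b carried the same seed, UAAGACG, and their 5p arms also shared one, AGCUUUU. Over 22 bases the 2 main 3p forms were the same at 19 positions and differed by G10A, A16G and C18U, counted from 1 at the 5′ end with the miR-208a-3p base first. The seed of miR-499-5p, UAAGACU, shared its first 6 bases, UAAGAC, with them. The main forms made up 41.2%, 54.4% and 57.5% of the counts of miR-208a-3p, miR-208b-3p and miR-499-5p in striated muscle. The RefSeq mature entries of the 2 miR-208 3p arms are 18 bases long and took only 1.33% of the miR-208a-3p counts and 0.0136% of the miR-208b-3p counts, whereas that of miR-499-5p is the main form itself. The main form of miR-499-3p, with 22.1% of its counts, starts 1 base before the RefSeq entry.

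The deposited values were raw counts per name. After the runs of each library were summed, the libraries of the series held 376401 to 17725805 counts (median 4816409), and the 30 striated muscle libraries held 2993535 to 10086504. Levels are given as CPM, a name's count over all counts of the library, scaled to 1000000. CPM of different miRNAs also carry the preference of the ligases for certain ends, so a level is compared between tissues and a ratio between tissues, not 1 miRNA with another. The muscle labels were checked on miR-206-3p, a skeletal muscle miRNA, which was at 0.232 CPM in Heart, 1684 in Soleus and 327 in Biceps. Among all libraries, 10 were nearer in profile to another tissue than to their label (4 Duodenum, 3 Hippocampus, 1 each of Adrenal, Ovary and Uterus), and none of these was striated muscle. Markers of other cell types differed in part between the 3 tissues. The summed level of 4 endothelial rows was 21204 to 27816 CPM in Heart, 9008 to 11477 in Soleus and 4192 to 8577 in Biceps. That of 3 leukocyte rows was 665 to 842, 219 to 483 and 246 to 461, with overlap of Soleus and Biceps. Of these 3 rows miR-223-3p differed little, with means of 44.0, 39.4 and 45.1 CPM. The sum of 2 smooth muscle rows was 72462 to 96755, 46169 to 86708 and 26252 to 62315, and Soleus overlapped both others. No row of these lists had a mean of 0 in the 3 tissues. The part of these cell types in the tissue differences was not tested. RNA was extracted again for soleus rats 3 and 7 and for biceps rats 5, 8, 10 and 11.

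**Figure D1:**
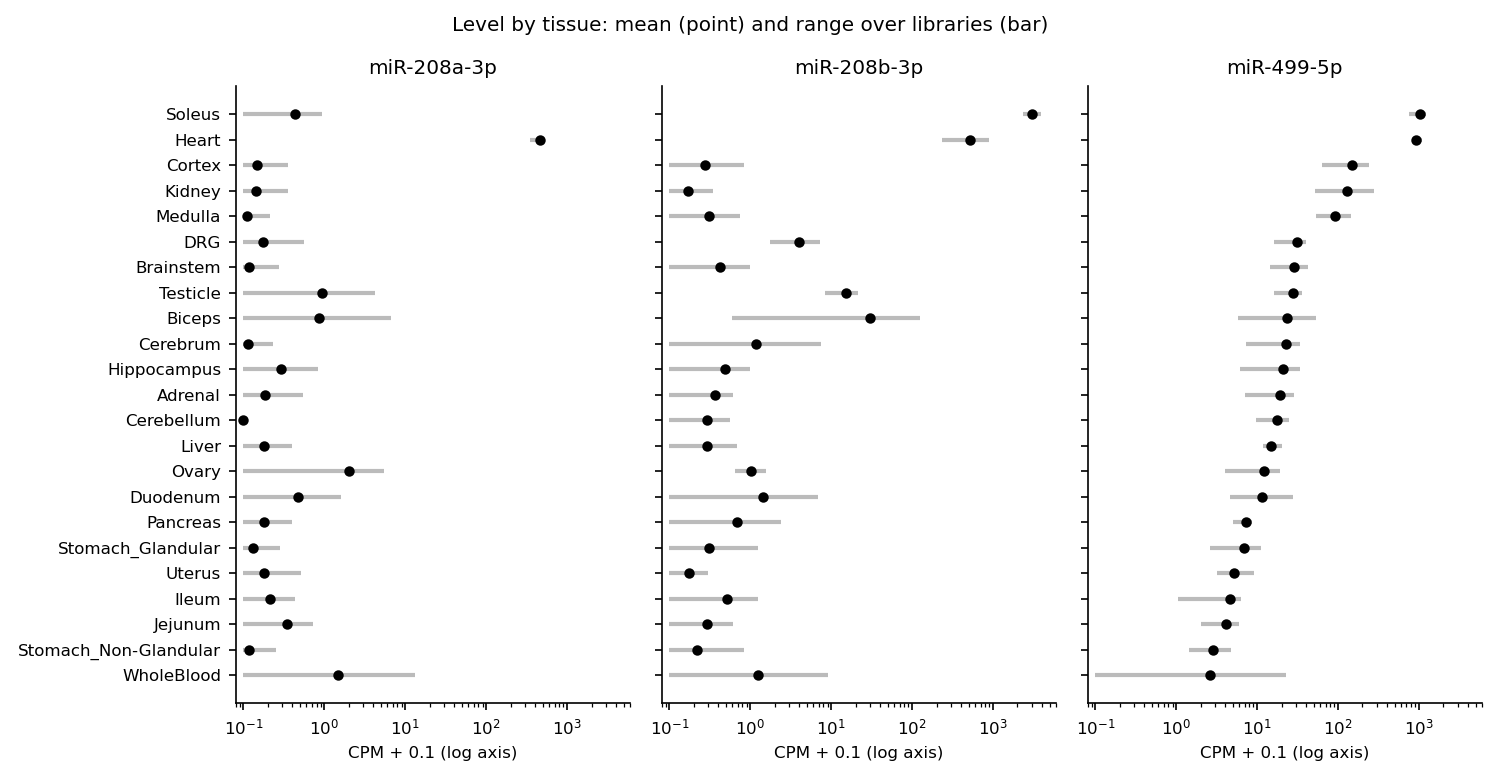
Mean level (point) and range over libraries (bar) of miR-208a-3p, miR-208b-3p and miR-499-5p in 23 tissues, as CPM + 0.1 on a log axis. miR-208a-3p stood at 463 CPM in Heart and below 2 in the other tissues, miR-208b-3p was highest in Soleus, and miR-499-5p was highest in Soleus and Heart and next in the kidney samples.

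miR-208a was a heart miRNA in these rats. Its 3p arm ranged from 344 to 518 CPM in Heart, with a median of 469 and a mean of 463 ± 49.7 (SD, n = 10). The next highest tissue mean was 1.90 CPM in Ovary, and the lowest heart library lay above every library of the other 22 tissues. Of its 25568 counts, 99.2% were in striated muscle, and 25322 of these were in Heart. In Soleus it ranged from 0 to 0.829 CPM (median 0.279), with 17 counts in all 10 libraries, and in Biceps from 0 to 6.57 CPM (median 0), with 34 counts. Heart was thus apart from both skeletal muscles in each rat.

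Taken as summed counts over summed library totals, miR-208a-3p was 1356-fold higher in Heart than in Soleus (95% counting interval 847 to 2329) and 661-fold higher than in Biceps (473 to 954). Of the 34 biceps counts, 29 came from rat 7, and without that library the ratio to Heart was 4092 (1753 to 12605). All 17 soleus counts were nearer in sequence to miR-208a-3p than to miR-208b-3p, 11 of them with no mismatch. Reads were named by alignment, so this nearness follows from the name and does not tell their source. The change C18U, to the miR-208b-3p base, was in 17.6% of the soleus counts and 0.182% of the heart counts. The source of the soleus counts was not tested. The biceps library of rat 7 also held 6 counts of miR-208a-5p, all that biceps had, and its 2 miR-208a arms stood at 1.42% and 1.96% of their heart means. These intervals cover counting error only, and PCR copies are not separate molecules.

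The 5p arm of miR-208a, the strand that is less often retained, followed its partner. It ranged from 49.6 to 93.4 CPM in Heart (median 67.5, mean 69.4 ± 14.4, SD, n = 10) and made up 13.5% of the counts of both arms there. It had 3 counts in Soleus and 6 in Biceps, and the ratio of Heart to Soleus was 1196 (counting interval 409 to 5804). Over the 10 hearts the 2 arms were not correlated beyond chance in CPM (Pearson's r = 0.09, permutation p = 0.812, adjusted p = 0.938 over 6 relations, Spearman's rho = 0.21, permutation p = 0.558). With upper quartile scaling, given below, their correlation passed the threshold, so the result depended on the scaling.

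miR-208b was highest in the slow muscle. In Soleus its 3p arm ranged from 2349 to 3951 CPM (median 3000, mean 3014 ± 422, SD, n = 10), in Heart from 236 to 883 (median 465, mean 517 ± 225) and in Biceps from 0.50 to 124 (median 3.62, mean 29.8 ± 49.7). The 3 ranges did not overlap. Of its 184372 counts, 99.7% were in these 3 tissues. The heart values spread over a wider range, relative to their mean, than those of miR-208a-3p in the same libraries.

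The biceps values of miR-208b-3p fell apart by rat. Rats 2, 3 and 4 had 119, 38.7 and 124 CPM, while the other 7 lay between 0.50 and 6.62. Without rat 4 the biceps mean was 19.4 CPM. The skeletal muscle miRNA miR-206-3p was at 456, 277 and 439 CPM in rats 2, 3 and 4 and between 193 and 460 in the others, so that miRNA did not separate the same rats. What part of the muscle was sampled is not given in the labels, and its share in this spread was not tested.

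The 5p arm of miR-208b was rare everywhere. It had 294 counts in Soleus, 43 in Heart and 0 in Biceps, where 0 counts allow at most 0.0605 CPM. Against that limit of 3 counts over the 10 biceps libraries it was at least 95.5-fold higher in Soleus and at least 12.7-fold higher in Heart. It made up 0.191% of the counts of both arms in Soleus and 0.150% in Heart. The share of miR-208a-5p in Heart was 13.5%, but ligase preference can differ between these sequences, so the size of this gap is not read as a strand difference.

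miR-499-5p was at a like level in Heart and Soleus and low in Biceps. It ranged from 811 to 1079 CPM in Heart (median 879, mean 919 ± 95.9, SD, n = 10), from 759 to 1222 in Soleus (median 1048, mean 1034 ± 143) and from 5.68 to 53.1 in Biceps (median 16.4, mean 22.9 ± 16.4). The heart and soleus ranges overlapped, and every biceps library lay below them. The 2 highest biceps values, 52.1 and 53.1 CPM, were those of rats 2 and 4, which also had the most miR-208b-3p. The 3p arm had 575, 528 and 23 counts in Heart, Soleus and Biceps and made up 1.11% and 0.993% of both arms in Heart and Soleus.

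**Figure D2:**
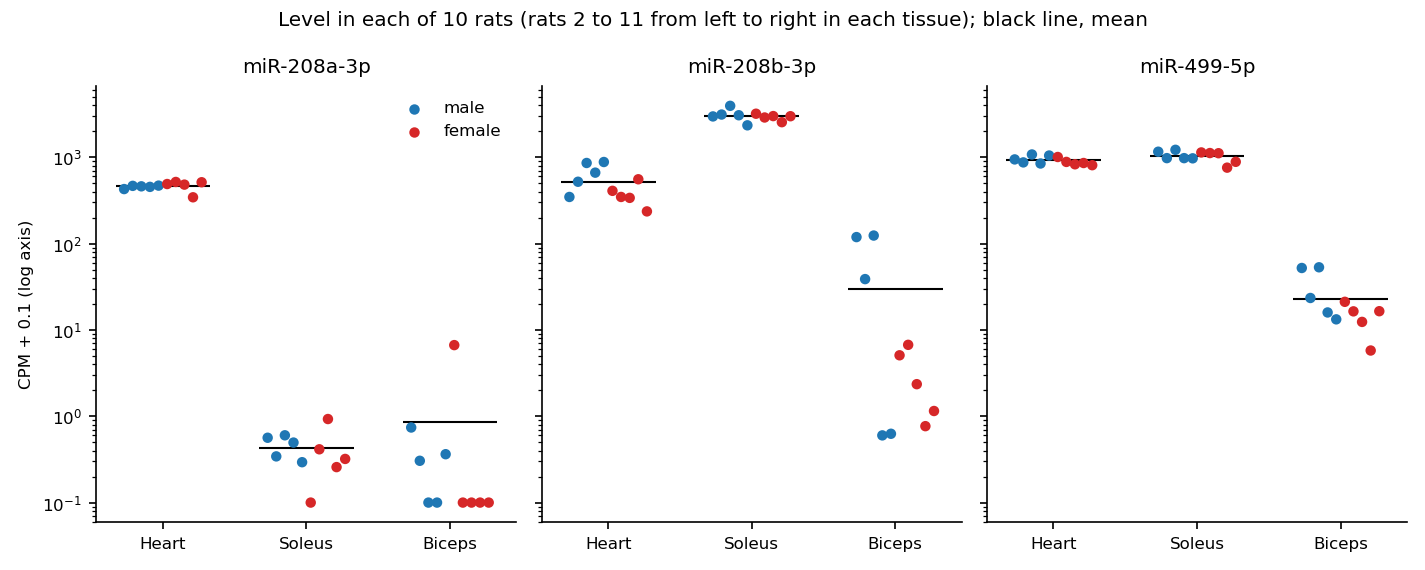
Levels of miR-208a-3p, miR-208b-3p and miR-499-5p (CPM + 0.1, log axis) in Heart, Soleus and Biceps of 10 rats, males in blue and females in red, with the mean as a line. The 10 hearts lie between 344 and 518 CPM for miR-208a-3p, and biceps rats 2, 3 and 4 lie between 38.7 and 124 CPM for miR-208b-3p, above the other 7.

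The tissue differences were tested for all names that passed the filter on low counts (1641 names, edgeR's quasi-likelihood test with Benjamini-Hochberg adjustment). Of the 7 member names 6 passed, the miR-208a names and miR-208b-5p through the tissues in which they are high. The counts below, and the p-values of those names, are therefore a description and not a test. Between Heart and Soleus 30.8% of all names were called, 20.5% as higher and 10.2% as lower in Heart, and of the 6 members 2 were higher (both arms of miR-208a), 2 lower (both arms of miR-208b) and 2 not called. The median log2 difference of all names was 0.39, against 0 with TMM scaling, so values near it carry no direction.

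miR-208a-3p was higher in Heart than in Soleus by 10.86 on the log2 scale (SE 0.84, adjusted p = 7.23e-25), and miR-208b-3p was lower by 2.09 (log2 difference -2.09, SE 0.61, adjusted p = 0.00399). For miR-499-5p the log2 difference was 0.29 (SE 0.38, adjusted p = 0.632), and its sign changed with the scaling, to -0.23 with TMM and -0.17 with library totals. A p above the threshold does not show that the levels are alike. With DESeq2 the calls of miR-208a-5p (adjusted p = 0.239) and miR-208b-5p (adjusted p = 0.706) were lost.

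Between Heart and Biceps 30.8% of all names were called, 21.1% as higher and 9.69% as lower in Heart, and all 6 members that were tested were called higher in Heart. The log2 difference was 9.70 for miR-208a-3p (SE 0.80, adjusted p = 5.81e-23), 4.69 for miR-208b-3p (SE 0.68, adjusted p = 1.41e-09) and 5.79 for miR-499-5p (SE 0.47, adjusted p = 7.12e-24). The call of miR-208a-5p, whose biceps counts all came from rat 7, was lost with DESeq2 (adjusted p = 0.296).

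Between the 2 skeletal muscles only 3.96% of all names were called, 2.74% as higher and 1.22% as lower in Soleus. Both arms of miR-208b and of miR-499 were among these. miR-208b-3p was higher in Soleus by 6.78 on the log2 scale (SE 0.76, adjusted p = 1.05e-13) and miR-499-5p by 5.51 (SE 0.46, adjusted p = 9.69e-22). For miR-208a-3p the log2 difference was -1.15 (SE 0.70, adjusted p = 0.528), and its direction rested on 1 library. The ratio of Soleus to Biceps, as summed counts over summed library totals, was 0.487 (counting interval 0.255 to 0.896) with biceps rat 7 and 3.02 (1.07 to 10.5) without it.

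Other muscle miRNAs, listed by name (the single rows of miR-1, miR-133a, miR-133b and miR-206, 9 rows, 8 of them tested), gave another picture. None of the 8 was called higher in Heart than in Soleus or Biceps, and 5 and 4 were called lower. Between Soleus and Biceps 4 of 8 were called, all higher in Soleus. The skeletal muscle miRNA miR-206-3p was lower in Heart than in Soleus by 12.21 on the log2 scale (log2 difference -12.21, adjusted p = 2.72e-27 by edgeR) and higher in Soleus than in Biceps by 2.34 (adjusted p = 0.00266), and its 5p arm and miR-133b-5p had no count in Heart. The calls came from rows of miR-206 and miR-133b and from the minor row miR-1 (3368 counts), while miR-1-3p and both arms of miR-133a were never called. miR-133a and miR-133b differ little in sequence, and reads that fit both were counted under composite names outside this list. A composite name of miR-1-3p, also outside it, held 324352 counts, against 152197 for miR-1-3p itself, and was never called either. The list's median log2 differences were -2.10 (Heart minus Soleus), -1.32 (Heart minus Biceps) and 1.39 (Soleus minus Biceps), beside 0.39, 0.42 and 0 for all names. The muscle miRNA miR-133a-3p, the most abundant of the list, was at 133421 CPM in Heart, 233502 in Soleus and 289152 in Biceps and was called in none of the 3 comparisons.

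Within a rat the balance of the 3 miRNAs set the tissues apart. The log2 ratio of the counts of 2 members, with 0.5 added to each, was compared between tissues of the same rat with exact sign-flip permutation tests (two-sided, 9 comparisons, n = 10 rats, smallest possible p 0.00195). In Heart, miR-208b-3p and miR-208a-3p had similar counts, with a ratio of 0.459 to 1.88 (median 0.975). In Soleus there were 3223 to 33813 times as many miR-208b-3p counts (median 7418). These ratios rested on 0 to 4 miR-208a-3p counts a library, so their size depends on the 0.5 added. The highest was that of rat 7, which had 0. The log2 ratio was lower in Heart than in Soleus in 10 of 10 rats (log2 difference -12.92 ± 1.10, SD, exact p = 0.00195, adjusted p = 0.00251). In Biceps the ratio ran from 0.763 to 1187 (median 17) and rested on 0 to 29 miR-208a-3p counts a library. Its log2 value was higher than in Heart in 8 of 10 rats (log2 difference, Heart minus Biceps, -4.44 ± 3.39, exact p = 0.00781, adjusted p = 0.00879).

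The ratio of miR-499-5p to miR-208b-3p was the one with ample counts of both names in Heart and Soleus. It lay between 1.19 and 3.43 in Heart (median 2.06) and between 0.296 and 0.415 in Soleus (median 0.337), so the ranges did not overlap. The log2 ratio was higher in Heart in 10 of 10 rats (difference 2.49 ± 0.56, SD, exact p = 0.00195, adjusted p = 0.00251). In Biceps miR-208b-3p had 2 to 593 counts a library, so the ratio there is less sure. The ratio ran from 0.429 to 27.3 (median 4.71, the highest on 3 counts), with rats 2, 3 and 4 at the low end. It was higher in Biceps than in Soleus in 10 of 10 rats (log2 difference, Soleus minus Biceps, -3.38 ± 2.26, exact p = 0.00195, adjusted p = 0.00251), and between Heart and Biceps it did not differ beyond the spread between rats (-0.89 ± 2.37, exact p = 0.268). The ratio of miR-499-5p to miR-208a-3p in Heart stayed within 1.58 to 2.50 (median 1.96), the narrowest of the 3 ratios there.

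**Figure D3:**
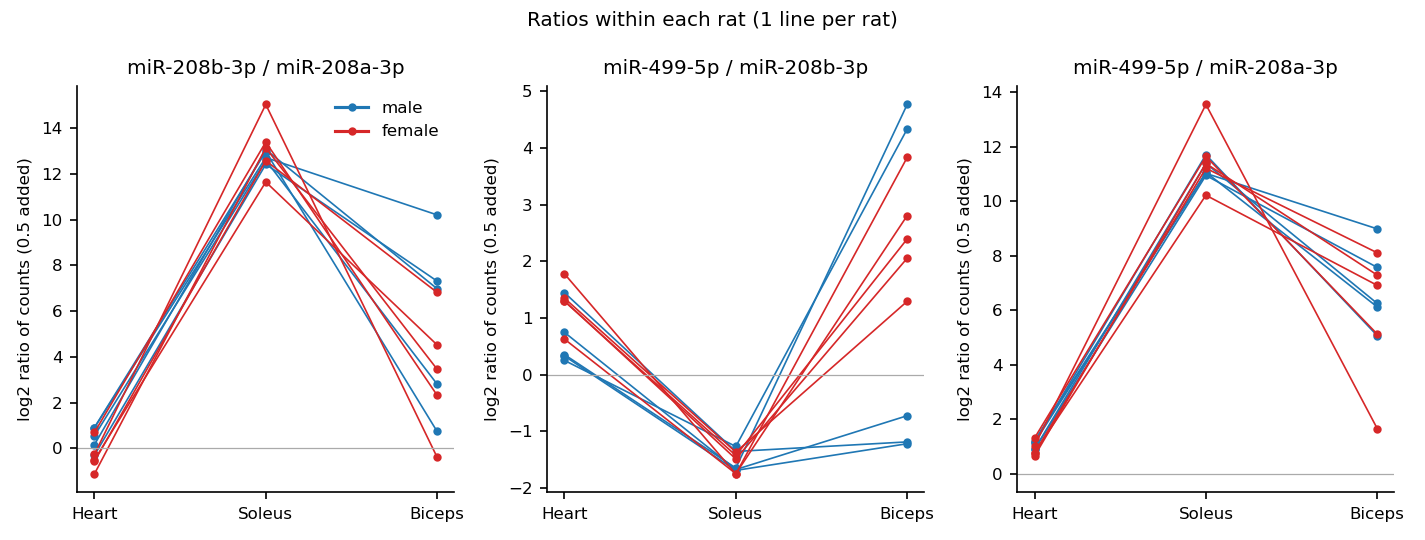
Log2 ratios of counts (0.5 added) of miR-208b-3p to miR-208a-3p, miR-499-5p to miR-208b-3p and miR-499-5p to miR-208a-3p in Heart, Soleus and Biceps, 1 line per rat, males in blue and females in red. The miR-499-5p to miR-208b-3p ratio is below 0 in all 10 soleus samples and above 0 in all 10 hearts.

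Across rats, miR-208b-3p and miR-499-5p rose and fell together in Biceps (Pearson's r = 0.88, permutation p = 0.00039, adjusted p = 0.00234; Spearman's rho = 0.81, permutation p = 0.00733, adjusted p = 0.044, over 6 relations, n = 10 rats, log2 of CPM + 1). Rats 2, 3 and 4 made up a separate cluster, and over the other 7 rats r was 0.49 (exact permutation p = 0.284) and rho 0.43 (exact permutation p = 0.354). The relation in Biceps therefore rested on those 3 rats, and without the 2 rats farthest from the median r was 0.62. In Heart and Soleus the same pair had r of 0.62 and 0.61 (permutation p = 0.0617 and 0.0658, adjusted p = 0.132 for both; rho 0.60 and 0.55, permutation p = 0.0712 and 0.105). miR-208a-3p in Heart was related neither to miR-208b-3p (r = -0.33, permutation p = 0.369, rho = -0.44, permutation p = 0.205) nor to miR-499-5p (r = 0.03, permutation p = 0.938, rho = -0.12, permutation p = 0.756). Scaled by upper quartile factors, r in Heart was 0.75 for miR-208a-3p and miR-499-5p, 0.66 for miR-208b-3p and miR-499-5p and 0.66 for the 2 arms of miR-208a. In Soleus it was 0.85 for miR-208b-3p and miR-499-5p. These passed the threshold (permutation, adjusted p = 0.0224, 0.0478, 0.0478 and 0.0069), so the calls in Heart and Soleus depended on the scaling. Both measures of a library share its factor here, as they share its total in CPM.

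Females and males were compared within the 3 tissues (1122 names, edgeR). In Biceps 0.178% of all names were called (2 names) and miR-208b-3p was one of them, lower in females by 3.84 on the log2 scale (log2 difference -3.84, SE 0.86, adjusted p = 0.00907). The male values were 119, 38.7, 124, 0.50 and 0.527 CPM and the female values 4.99, 6.62, 2.25, 0.668 and 1.05, so the ranges overlapped and 2 males lay below all females. An exact permutation test of 5 against 5 rats, chosen after the data were seen, gave p = 0.183. The call was lost without rat 2, 4, 7, 9, 10 or 11, with adjusted p between 0.00363 and 0.144 over the 10 single omissions. The sex difference in Biceps was not shown to differ from that in Heart (adjusted p = 0.527) or in Soleus (adjusted p = 0.936).

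In Heart 0.0891% of all names were called between the sexes (1 name) and no member was. miR-208b-3p was at 347, 521, 860, 665 and 883 CPM in males and at 409, 347, 339, 557 and 236 in females (log2 difference -0.91, SE 0.76, adjusted p = 1, exact permutation p = 0.0635). The log2 ratio of miR-208b-3p to miR-208a-3p averaged 0.44 ± 0.52 (SD) in males and -0.36 ± 0.67 in females (exact permutation p = 0.0714, adjusted p = 0.286 over 4 ratios, n = 5 and 5). In Soleus edgeR called 0 names between the sexes (52 had an unadjusted p under 0.05), and DESeq2 called 10.

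Outside striated muscle miR-499-5p was the member with the most counts. Of its 133940 counts 78.4% were in striated muscle, and the 20 other tissues held 28911, with no tissue mean under 1 CPM, whereas the mean of miR-208a-3p was under 1 CPM in 18 and that of miR-208b-3p in 15 of these 20. In WholeBlood the means of all 3 were above 1 CPM only through the library of rat 6. Without it the miR-499-5p mean there fell from 2.52 to 0.275 CPM. After Soleus and Heart came Cortex with 149 ± 66.9 CPM, Kidney with 129 ± 75.7 and Medulla with 91.2 ± 36.9 (SD, n = 10), whose ranges overlapped one another. All 30 of these libraries lay above every DRG library (15.9 to 40.6 CPM), the next in order. Biceps, at 22.9 CPM, was only 9th of 23 tissues and overlapped Brainstem (28.4), Testicle (27.8) and Cerebrum. In the whole organ, fewer cells that hold a miRNA and less of it per cell cannot be told apart.

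In the kidney the values of miR-499-5p lay apart by sex, although no difference passed the adjustment over all names. In Kidney the males had 76.3, 64.8, 79.8, 68.0 and 51.7 CPM and the females 137, 149, 170, 278 and 220. In Cortex the males had 114, 62.8, 90.5, 93.4 and 85.6 and the females 181, 239, 178, 223 and 225. In both, every female lay above every male. In Medulla the males had 53.0 to 97.0 CPM and the females 60.2 to 146, and the ranges overlapped.

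The log2 difference, female minus male, was 1.5 in Kidney (SE 0.42, unadjusted p = 0.000421 by edgeR), 1.44 in Cortex (SE 0.42, unadjusted p = 0.000658) and 1.16 in Medulla (SE 0.41, unadjusted p = 0.00558). None passed the adjustment over 1122 names (adjusted p = 0.146, 0.143 and 0.165), beside 0.178%, 0.357% and 0.178% of names that did. Exact permutation tests of 5 against 5 rats, of which 6 were run in these organs and in striated muscle after the values were seen, gave p = 0.00794 in Kidney and Cortex, the smallest they can give, and 0.0714 in Medulla. The 3 samples of a rat come from the same organ and are not separate animals.

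**Figure D4:**
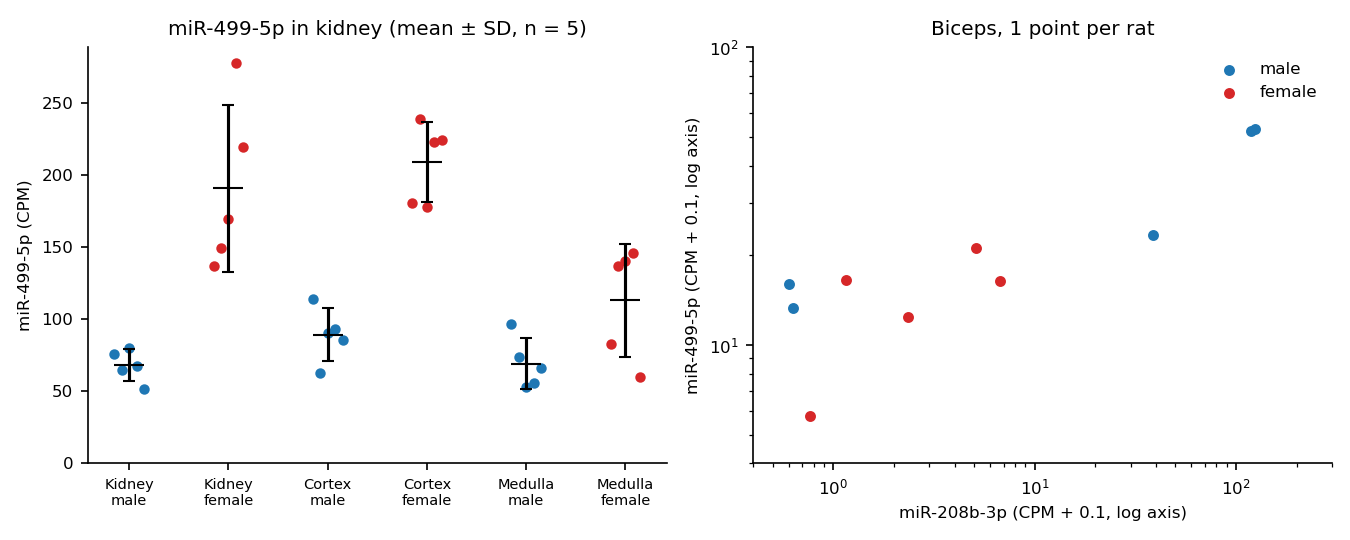
Left, miR-499-5p (CPM) in Kidney, Cortex and Medulla of 5 male and 5 female rats, with mean and SD; females lie at 137 to 278 CPM in Kidney and males at 51.7 to 79.8. Right, miR-208b-3p against miR-499-5p in Biceps, 1 point per rat on log axes (CPM + 0.1), with rats 2, 3 and 4 at the upper right.

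Traces of the miR-208 members elsewhere were small and uneven. miR-208b-3p was at 15 ± 5.21 CPM in Testicle (8.23 to 21.3, n = 5, 36 counts in the shallowest libraries of the series), 3.93 ± 2.07 in DRG and 1.32 ± 2.26 in Duodenum. The Duodenum mean rested mostly on rat 3 (6.75 CPM, 44 counts) and rat 9 (3.97 CPM, 13 counts). Without the 4 Duodenum libraries nearer another tissue than their label it was 1.87 CPM. All 5 testis libraries lay above all DRG libraries. For miR-208a-3p the highest tissues after Heart were Ovary (1.90 ± 2.09 CPM, 0 to 5.32, n = 5), WholeBlood (1.36 ± 4.15, n = 10) and Testicle (0.825, from 2 counts in 1 library). The ovary values overlapped those of most tissues at their low end, since 1 of the 5 libraries had no count. That library, of rat 11, is the Ovary library that was nearer another tissue than its label, and without it the mean was 2.37 CPM.

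The blood value came from 1 library. Rat 6 held 83 of the 87 miR-208a-3p counts in WholeBlood (13.2 CPM), and without it the mean was 0.0447 CPM. The same library held 9.04 CPM of miR-208b-3p and 22.7 of miR-499-5p, against means of 0.259 and 0.275 over the other 9. Its miR-208a-3p, miR-208a-5p and miR-208b-3p were at 2.84%, 3.43% and 1.75% of their heart means. The striated muscle markers miR-1-3p and miR-133a-3p together stood at 3061 CPM in that library and at 8.47 to 147 in the other 9, while miR-206-3p was at 0.476 CPM, within the 0 to 3.56 of the others. Markers of other cell types were also highest in that library: the 2 smooth muscle rows stood at 2731 CPM, against 135 to 831 in the other 9, and the 4 endothelial rows at 694, against 16.1 to 62.8. The source of these counts was not tested.

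The 5′ starts of the isomiRs depended on a sequencing lane, so this is given before the tissues are compared. In the 5 libraries with enough counts on lane 8 of flow cell C2BUMACXX, 36.0 to 63.0% of the counts of a member carried 1 or 2 extra bases at the 5′ end that do not match the hairpin. In all other runs with 50 counts or more this share was at most 2.78%. The libraries concerned include heart rat 3 and soleus rat 8, and their runs on other lanes were within that bound. With this lane included, the share of miR-208b-3p counts at the main start did not differ between Heart and Soleus (difference 7.05 percentage points ± 20.4, SD, exact p = 0.369). The shares below leave out the 14 runs of that lane and, unless stated, sequences that do not match the hairpin, a choice made after the data were seen.

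miR-208b-3p started 1 base upstream more often in skeletal muscle than in Heart. The forms that carry the finding, with the seed in capitals, are the main form and the form with 1 more base at its 5′ end and 1 fewer at its 3′ end.
main start: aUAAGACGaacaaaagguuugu
1 base upstream: uAUAAGACgaacaaaagguuug
The upstream start took 5.88 to 9.75% of the miR-208b-3p counts in Heart (median 7.36, mean 7.37 ± 1.04, SD, n = 10) and 13.6 to 18.4% in Soleus (median 14.8, mean 15.1 ± 1.33), with no overlap. The difference was -7.77 percentage points ± 1.45 (lower in Heart in 10 of 10 rats, exact p = 0.00195, adjusted p = 0.0176 over 18 tests). In the 4 biceps libraries with 50 counts or more the shares were 13.1, 15.4, 16 and 19.6%, all above every heart, although 4 rats cannot give a p below 0.125. The seed of the upstream form is AUAAGAC in place of UAAGACG.

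The upstream forms mostly kept a length of 22 bases. Among them 60.1% ended 1 base short of the main 3′ end in Heart, 77.2% in Soleus and 80.3% in Biceps, while among forms with the main start this share was 29.7%, 31.2% and 35.4%. The mean length of miR-208b-3p was therefore close, 21.72 ± 0.07 bases in Heart and 21.73 ± 0.02 in Soleus. Of the miR-208a-3p counts in Heart only 0.487% ± 0.174 started 1 base upstream, and 6.37% ± 1.01 started 1 base downstream.

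miR-499-5p varied on the other side. The start 1 base downstream took 8.29% ± 1.54 of its counts in Heart (6.44 to 11.3, n = 10), 10.5% ± 1.30 in Soleus (9.31 to 13.3) and 9.87% ± 5.60 in Biceps (n = 8). It was lower in Heart than in Soleus in 9 of 10 rats (-2.22 percentage points ± 1.72, exact p = 0.00391, adjusted p = 0.0234 over 18 tests). The most counted downstream form ends 3 bases beyond the main form and has the seed AAGACUU.
main start: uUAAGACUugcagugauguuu
1 base downstream: uAAGACUUgcagugauguuuagc
Forms that ended 3 bases beyond the main end made up 64.8%, 67.3% and 69.7% of the downstream starts in Heart, Soleus and Biceps, but 3.97%, 6.96% and 4.47% of the main starts. In the kidney, an organ without striated muscle, the downstream start took 10.7% ± 2.85 in Kidney, 9.35% ± 1.81 in Cortex and 9.13% ± 2.56 in Medulla, close to the muscle shares.

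**Figure D5:**
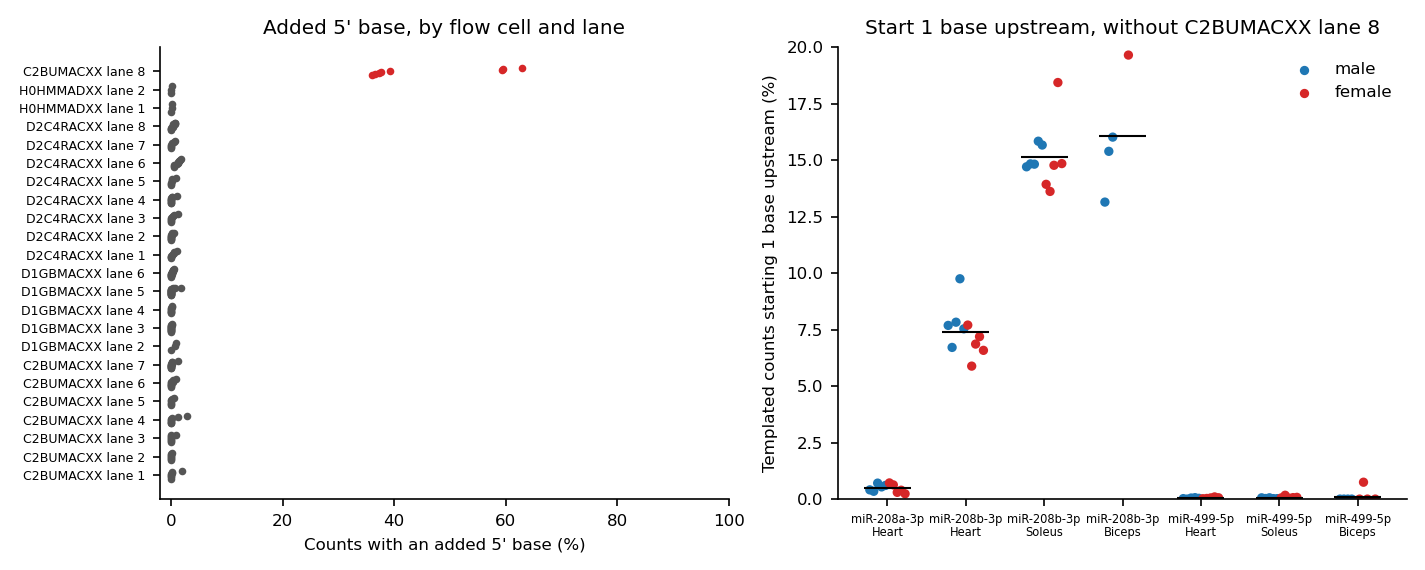
Left, share of member counts with an added 5′ base in each run with at least 50 counts of a member, by flow cell and lane, with C2BUMACXX lane 8 in red at 36.0 to 63.0%. Right, share of templated counts that start 1 base upstream, 1 point per rat and a line for the mean, without that lane: for miR-208b-3p it is 5.88 to 9.75% in Heart and 13.6 to 18.4% in Soleus.

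The names nearest in pattern were taken as those with the highest Pearson correlation of tissue means (log2 scale, 716 names, 23 tissues that share libraries and depth, given as a description). For miR-208a-3p these were miR-208a-5p (r = 0.98), miR-6314 (r = 0.96) and miR-208b-3p (r = 0.57). miR-6314 was at 9.51 CPM in Heart and 0.0194 and 0.0227 in Soleus and Biceps. For miR-208b-3p they were the row miR-1 (r = 0.93), miR-133b-3p (r = 0.88) and miR-133a-5p (r = 0.87). This row miR-1 is a minor one with 3368 counts and is not miR-1-3p, which had 152197. The miR-1-3p means were 561 CPM in Heart, 983 in Soleus and 1371 in Biceps, so it was highest where miR-208b-3p was lowest of these tissues. For miR-499-5p the nearest were miR-499-3p (r = 0.93), miR-30c-5p (r = 0.79) and miR-30e-3p (r = 0.77). The miR-30 names were at 13006 and 877 CPM in Heart and 7150 and 422 in Biceps, so their drop in Biceps was far smaller than that of miR-499-5p.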

How the data were processed

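Small RNA was sequenced in 458 runs, and the authors deposited raw counts per miRNA name and per isomiR sequence for each run. Per the study's methods, adapters were removed with cutadapt 1.4.1 and reads were named with miRDeep2 against miRBase, first for rat and then for other species, a read that fits several names receiving a composite name. Mismatched reads are kept and counted. Here the 444 runs that were not a repeat of the same lane were summed per library (14 set aside), and the 10 DRG libraries were summed to 2 samples for fits. No column was left without a sample.

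Counts were tested with edgeR 4.0.16 (R 4.3.3; quasi-likelihood F test, upper quartile scaling, filter on low counts, Benjamini-Hochberg, threshold 0.05), with tissue as the only term, and with tissue by sex cell means for sex. DESeq2 1.42.0 and other scalings were alternatives. Ratios, isomiR shares and correlations used exact or 100000-resample permutation tests (scipy 1.17.1). An isomiR was placed on the RefSeq hairpin by its 5′ start, in libraries with at least 50 counts. The fits were tested on simulated data: 100% of 200 changed names (4-fold) were recovered for Heart against Soleus (1361 names) and 95.5% for sex in Heart (968 names). Of the unchanged names 22 of 1161 and 3 of 768 were called falsely. The simulated dispersion, a measure of the spread between libraries, was 0.2 for all names. Same-numbered samples come from the same rat, and their deviations from the tissue means had a median correlation of 0.03 over 30 pairs.

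The members and lists were chosen with earlier results of these data known. Genes named are the members, a list of other muscle miRNAs, the 3 nearest in pattern, the most counted isomiRs and the 3 highest other tissues. Libraries of a group are separate rats except DRG. Depth was 376401 to 17725805 counts, and intervals cover counting error only.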

Additional observations from a re-analysis of the deposited data

Results flagged for a closer look

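A sample far from the rest of its group was found in 15 of 42 groups tested, by the gap to its nearest neighbour relative to the range (Dixon's criterion, by which chance flags about 1 in 20 groups). For levels these were heart rat 10, low for miR-208a-3p at 344 CPM, soleus rat 4, high for miR-208b-3p at 3951 CPM, biceps rat 7, high for miR-208a-3p at 6.57 CPM, and the blood library of rat 6, high for miR-208a-3p (13.2 CPM), miR-208b-3p (9.04 CPM) and miR-499-5p (22.7 CPM). Among log2 ratios soleus rat 7 stood high for miR-208b-3p to miR-208a-3p (15.05) and for miR-499-5p to miR-208a-3p (13.56), since it had no miR-208a-3p count.

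The share of counts at the most counted 5′ start, over all runs, was low in heart rat 3 for miR-208a-3p (47.4%), miR-208b-3p (46.3%) and miR-499-5p (46.4%), in soleus rat 8 for miR-208b-3p (43.0%) and miR-499-5p (47.2%), in Kidney rat 7 for miR-499-5p (47.1%) and in Medulla rat 7 for miR-499-5p (49.7%). Each of these libraries had a run on lane 8 of flow cell C2BUMACXX.

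Rows that the rule leaves out also held counts, with no control samples to set them against: 121 for miR-499a-5p, a human name, 18 for a predicted row with the seed of miR-499-3p, 18 for a precursor-only row of miR-499, 19 and 21 for 2 precursor-only rows of miR-208b and 7 for one of miR-208a.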

How the results depend on the processing

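Of 149 repeats of a member's tissue difference under other settings, 139 kept direction and side of the threshold, 3 lost the call (given in the report) and 7 changed sign. The 7 were all Heart minus Soleus: for miR-499-5p the log2 difference was -0.23 with TMM scaling, -0.17 with library totals, -0.39 with DESeq2 and -0.044 in a fit of the 3 striated tissues, and for miR-499-3p it was -0.062, -0.016 and -0.22 in the first 3 of these. With rat as the replicate block no member's tissue call changed (miR-208b-3p, Heart minus Soleus, -2.34, adjusted p = 0.000803). Names called numbered 505 (Heart minus Soleus), 505 (Heart minus Biceps) and 65 (Soleus minus Biceps). They fell to 256, 299 and 33 with the runs of flow cell D1GBMACXX alone (fewer counts). For Soleus minus Biceps they were 103 with DESeq2, 191 in the 3-tissue fit and 40 without re-extracted RNAs (fewer samples), and the cause of the first 2 was not tested. Between sexes edgeR called 1, 0 and 2 names in Heart, Soleus and Biceps, DESeq2 9, 10 and 19, edgeR without the filter 20, 19 and 18 and the 3-tissue fit 3, 4 and 5. Leaving out 1 rat gave 0 to 1, 0 to 0 and 0 to 2. The sex difference of miR-208a-3p in Biceps ranged from -3.44, without rat 7, to 3.38.

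Ratios kept their calls in 48 of 54 repeats. Without re-extracted RNAs, which leaves fewer rats, the adjusted p missed the threshold for miR-208b-3p to miR-208a-3p (Heart minus Biceps -4.75, Soleus minus Biceps 6.75), miR-499-5p to miR-208b-3p (Soleus minus Biceps -2.52) and miR-499-5p to miR-208a-3p (-4.80 and 4.23). With D1GBMACXX runs alone the first was -2.25 (adjusted p = 0.0703). Without re-extracted RNAs, Soleus minus Biceps keeps rats 2, 4, 6 and 9, and a sign-flip test of 4 rats cannot give a p below 0.125. Those Soleus minus Biceps calls could therefore not be kept, whatever the values. Heart minus Biceps also keeps fewer rats, which limits the p it can reach, so these losses do not tell whether re-extraction matters.

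For the share of miR-208b-3p at the main start, Heart minus Soleus passed the threshold at 7.75 percentage points with D1GBMACXX runs alone, 7.39 without C2BUMACXX lane 8 and 7.48 with templated sequences alone. Heart minus Biceps changed sign to 3.40 with no replicate block, 6.98 with at least 200 counts, 8.11 without the lane and 7.96 templated, and Soleus minus Biceps to 0.124 (200 counts), 1.12 and 0.691. For miR-499-5p the start share of Heart minus Soleus passed at 2.75 (D1GBMACXX) and 2.39 (without the lane), Heart minus Biceps changed sign to 1.14 (200 counts) and 0.853 (without the lane), and the length of Heart minus Soleus passed at -0.129 bases (D1GBMACXX). Its length, Heart minus Biceps, changed sign to -0.0242 bases with 200 counts, and Soleus minus Biceps lost its call at 0.0589 (200 counts), 0.183 (other flow cells), 0.171 (10 most counted sequences) and 0.128 (without the lane). The lane and the templated alternatives were chosen after seeing the data.

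With upper quartile scaling the heart correlations were 0.219 (miR-208a-3p and miR-208b-3p, sign changed), 0.752 (miR-208a-3p and miR-499-5p), 0.661 (miR-208b-3p and miR-499-5p) and 0.662 (the miR-208a arms). The soleus one was 0.853, and all but the first passed the threshold. Both measures share a library's factor there, as they share its total in CPM. Without the 2 rats farthest from the median, miR-208a-3p and miR-499-5p had -0.300 and the biceps pair 0.620 (call lost). With separate flow cells for the 2 miR-208a arms r was -0.0700. Depth limits miR-208a in skeletal muscle and miR-208b-5p, which rest on a few counts.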

Other observations

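The strand opposite miR-208a carries another annotated miRNA, miR-3546 (RefSeq, GRCr8, chr15:32395601-32395622, plus strand), chosen after its values were seen. Its RefSeq mature sequence is complementary to the miR-208a hairpin, 20 of its 22 bases lying opposite miR-208a-5p.
miR-3546: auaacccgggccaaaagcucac
Its 1743 counts were distributed unlike those of miR-208a. Brainstem was highest with 17.8 ± 4.32 CPM (12.4 to 27.0, n = 10), followed by DRG with 8.77 ± 3.16 (technical libraries of 2 pools), Cerebrum with 6.47 ± 1.72, Hippocampus with 3.8 ± 3.19 and Cerebellum with 2.95 ± 0.827. Heart had 4 counts in 10 libraries, at a mean of 0.0679 CPM, where miR-208a-5p was at 69.4 CPM. The reads of the 2 names differ in sequence, so the counts of one are not those of the other. Duodenum, at 1.22 ± 1.91 CPM, had counts in 4 of 10 libraries, and Hippocampus in 7 of 10, and 4 Duodenum and 3 Hippocampus libraries are among the 10 that were nearer to another tissue than to their label.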
